A study of Homo sapiens with 6 samples.

Results

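The RNA of the zinc finger genes of chromosome 19, taken as the protein-coding genes with a GENCODE symbol of ZNF and a number, was measured in UWB1.289 cells treated with Olaparib or with DMSO. Of 476 such symbols across all chromosomes, 240 lay on chromosome 19, and 238 of these had a matching gene identifier in the count table. A filter that asked for more than 10 counts, summed over the 6 samples, left 233 of them, and these 233 genes, of 21729 genes tested in all, are the members described here. ZNF229 and ZNF8 had no matching identifier and were not analysed here. Membership used the symbol, the chromosome and the total count, and no difference between the groups.

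UWB1.289 is a human ovarian carcinoma line that the study describes as BRCA1-deficient and that the labels list with the genotype WT. The Olaparib group (3 samples) received 4 µM Olaparib, an inhibitor of the poly(ADP-ribose) polymerases PARP1 and PARP2, for 24 h, and the DMSO group (3 samples) received the vehicle alone for the same time. The design text of the series gives 10 µM in place of 4 µM. All 6 samples came from a single line grown in dishes, so p-values measure the spread between dishes of that line. Total counts per sample lay between 35360458 and 39640775. Replicates of a group differed by more than counting noise in every pair, with a chi-square per degree of freedom of 1.81 to 4.11. The epithelial and Müllerian markers EPCAM, KRT7, KRT8, KRT18, CDH1, PAX8, SOX17 and MUC16 were present, whereas WT1 had 8 counts in all 6 samples together. Of the 9 markers of other cell types, CD3E, PECAM1, DCN and HBB were at 6 counts or fewer in total, and CDH5 was the highest at 1494 to 1680 normalized counts per sample.

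Zinc finger proteins of this kind bind DNA through tandem C2H2 fingers, short loops that each hold a zinc ion and read a few bases. Many also carry a KRAB domain, which recruits the corepressor TRIM28 (KAP1). TRIM28 in turn brings the histone methyltransferase SETDB1, HP1 proteins and the NuRD complex, and the bound site, often in a transposable element, is packed into heterochromatin marked by trimethylated H3K9. The genes arose by repeated local duplication, so that neighbours are often close paralogs.

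A match to the KRAB domain was found in 202 of the 240 annotated genes and not in 38. Only 1 canonical transcript per gene was searched, so a gene without the match may carry the domain in another transcript. With or without KRAB refers below to this match. The number of C2H2 fingers per protein had a median of 12 and ran from 1 to 36, the latter in ZNF208. Runs of neighbouring genes less than 500 kb apart formed 10 clusters of at least 5 genes, numbered from the short arm telomere, which held 228 of the 240 genes. Cluster 4 on the short arm, next to the centromere, was the longest at 4461 kb (chr19:19668796-24129968, GRCh38) and held 37 genes. At the end of the long arm, cluster 10 held 41 genes within 1290 kb (chr19:57191500-58481230).

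Promoter sequences from RefSeq (GRCh38.p14), which span 250 bases before to 50 bases after the transcription start, were matched by symbol for 204 of the 233 members. The letters CCGGAAG, the core bound by ETS factors, were found on either strand in 96 of these (47.1%), against 20.4% of 11805 tested protein-coding genes, 38.8% of ZNF genes on other chromosomes and 10.3% of all 35116 promoter windows. CCAAT was found in 55.9% of members and 42.9% of tested protein-coding genes. The TATA box letters TATAAA were found in 2.94% of members and 9.32% of tested protein-coding genes, and the E-box CACGTG in 4.41% and 12.2%. GGGCGG, the SP/KLF letters, was about as frequent in members (73.5%) as in tested protein-coding genes (75.1%). The remaining letters searched were GCGCATGC (NRF1 core, 4.90% of members), AAGATGGC (YY1, 6.37%) and TGACGTCA (CRE, 4.41%), against 5.86%, 5.77% and 3.55% of tested protein-coding genes. No motif contains another, although the ends of neighbouring matches can overlap. Such a match describes letters in a window and is not evidence of binding.

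Stretches of 30 bases around the CCGGAAG match nearest to the start site are shown for 10 members. These are the members named below by level, p or described role that hold the match. The stretches let sequence shared within and between clusters be read. Each is written 5′ to 3′ in the direction of the gene, and the capitals mark the match, read as CTTCCGG where it lies on the opposite strand.
ZNF91 (chr19:23395477-23395506, minus strand): ggacagggcggCTTCCGGgatgtggctggg
ZNF431 (chr19:21142005-21142034, plus strand): ggacaggacggCTTCCGGgatgtggcgggg
ZNF611 (chr19:52735022-52735051, minus strand): ttaacgcaaacCCGGAAGcggatcgggtgg
ZNF808 (chr19:52527661-52527690, plus strand): ttaacgcaaacCCGGAAGcggatcgggtgg
ZNF845 (chr19:53333742-53333771, plus strand): ttcgcgcaaacCCGGAAGcggatcgcatgg
ZNF580 (chr19:55640979-55641008, plus strand): gggctcgcgcgCTTCCGGccggcgcctttt
ZNF274 (chr19:58183059-58183088, plus strand): ccattccagcaCTTCCGGcctgacccctgt
ZNF432 (chr19:52048830-52048859, minus strand): ctgaggaaaagCCGGAAGgccgcattccgc
ZNF787 (chr19:56121276-56121305, minus strand): cgggaaggtcaCTTCCGGcctgggcgcccg
ZNF568 (chr19:36916283-36916312, plus strand): atgtgttctggCCGGAAGttgagtggggcc
The stretches of ZNF91 and ZNF431, both of cluster 4, were identical at 28 of 30 bases. They shared a run of 18 bases that was found in the promoters of 6 members, all 6 in cluster 4, and of no other gene among the 27305 with a promoter. ZNF611 and ZNF808, both of cluster 8, were identical at all 30 bases, and each matched ZNF845 at 26 of 30. Their common run of 21 bases was found in 3 genes, all in cluster 8. ZNF274 of cluster 10 and ZNF787 of cluster 9, by contrast, shared a run of 13 bases between clusters, which was found in 5 genes, 2 of them members. These runs were chosen after the stretches had been seen.

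Members were expressed at modest levels. Their median was 1.5 CPM (counts scaled to the size of the library) per kb of exon, against 3.71 for all tested protein-coding genes, and together they took 0.267% to 0.290% of the counts of a sample. ZNF146, a protein made up almost entirely of fingers, was the highest of the members at 38.5 CPM per kb and alone took 5.69% to 5.83% of their summed CPM. Next came ZNF358 (17.9 CPM per kb), ZNF581 (14.1), ZNF428 (12.5) and ZNF787 (11.6). None of these 5 had a KRAB domain, and the highest member with one was at 7.47 CPM per kb. Members without KRAB had a median of 2.88 CPM per kb, against 1.43 for members with it.

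At the other end, 5 of the annotated genes did not pass the filter, ZNF536 with 2 counts in total, ZNF728 with 3, ZNF177 with 4, ZNF560 with 7 and ZNF534 with 10. ZNF534 encodes a KRAB protein that binds endogenous retroviral sequence. The members just above the filter were ZNF99 with 19 counts, ZNF154 with 20, and ZNF491 and ZNF723 with 26 each. At these counts no difference between the groups could be measured, as the 95% interval of the log2 fold change of ZNF99 ran from -1.49 to 1.26.

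The comparison of Olaparib with DMSO asked how RNA levels responded to PARP inhibition. Members changed little. ZNF121 and ZNF580 were lower after Olaparib, no member was higher, and neither of these changes reached a fold of 1.2. By the quasi-likelihood test of edgeR, with p adjusted after Benjamini and Hochberg over all 21729 genes, 0 of 233 members were higher and 2 (0.858%) lower at an adjusted p under 0.05, where 2.15% of all genes tested were called higher and 1.21% lower. With the added condition of a fold above 1.2, 0 members were called in either direction, against a background of 0.723% higher and 0.483% lower. Before adjustment, 6 members were higher and 29 lower at p under 0.05 (2.58% and 12.4%), where the background was 7.83% and 6.97%. The lower count varied with the library left out. Without DMSO replicate 1 it was 10 of 233 (4.29%, background 5.77%), with 7 higher (3.00%, background 7.16%). Without Olaparib replicate 2 it was 18 (7.73%, background 6.46%), with 9 higher (3.86%, background 6.75%). With any other single sample left out it was 20 to 35 (8.58% to 15.0%, background 5.60% to 7.67%). The higher count was then 2 to 6 (0.858% to 2.58%, background 6.59% to 8.23%). With all 6 samples, ZNF genes on other chromosomes had 29 of 220 lower (13.2%) and 5 higher (2.27%) at the same unadjusted threshold. DESeq2 gave an adjusted p for 209 members and called ZNF121 alone (0.478% lower, 0 higher), where it called 1.17% of genes lower and 2.74% higher. At its unadjusted p under 0.05 it had 0 members higher and 13 lower (5.58%), against a background of 5.49% and 3.79%.

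**Figure D1:**
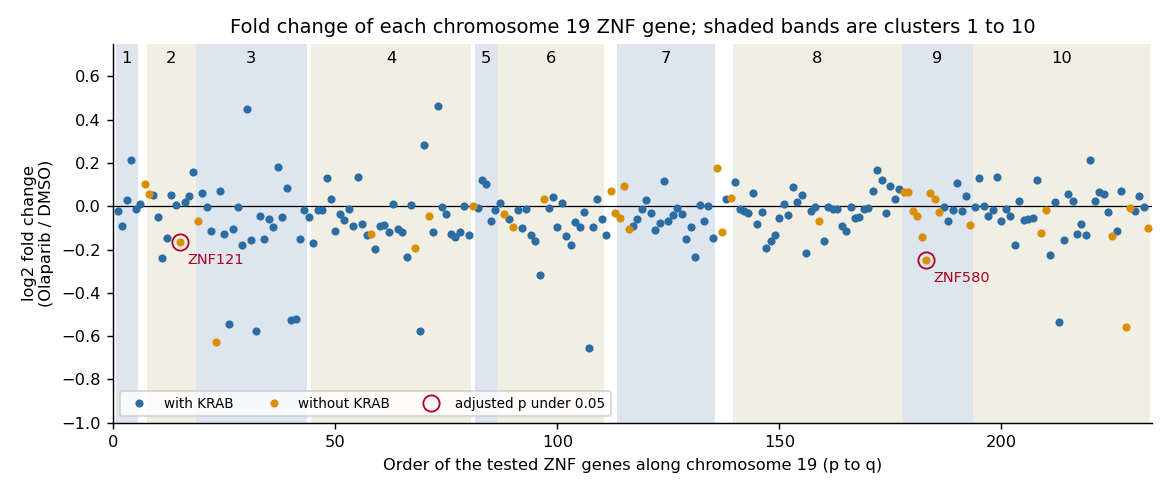
Log2 fold change (Olaparib over DMSO, vertical axis) of the 233 members in their order along chromosome 19 (horizontal axis), coloured by KRAB domain, with shaded bands for clusters 1 to 10 and red rings for the 2 members at an adjusted p under 0.05. Of the points, 163 lie below 0 and 70 above.

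ZNF121 (ENSG00000197961, chr19:9560329-9584504, minus strand, cluster 2) encodes a protein with 9 fingers and no KRAB domain. Its normalized counts were 2481, 2344 and 2331 in the Olaparib samples and 2682, 2644 and 2700 in the DMSO samples. All 3 Olaparib samples lay below all 3 DMSO samples. The means were 2385 ± 83.0 and 2675 ± 28.7 (SD, n = 3 each), and the level fell by 10.8%, with a log2 fold change of -0.17 (SE 0.040, 95% interval -0.25 to -0.085, edgeR adjusted p = 0.0113). No exonic base of ZNF121 overlapped another gene, and 0.659% of its 50-base words occurred in the transcripts of other genes. Without Olaparib replicate 2, Olaparib replicate 3 or DMSO replicate 3 the adjusted p was 0.0587, 0.0919 and 0.0794, so that the call rests on each of these samples.

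The promoter of ZNF121 is shown because its RNA was 1 of the 2 that passed the test. The 250 bases upstream of its RefSeq start site (chr19:9584505-9584754, minus strand, outside annotated exons) read as follows, with capitals for the motif matches.
ZNF121 upstream: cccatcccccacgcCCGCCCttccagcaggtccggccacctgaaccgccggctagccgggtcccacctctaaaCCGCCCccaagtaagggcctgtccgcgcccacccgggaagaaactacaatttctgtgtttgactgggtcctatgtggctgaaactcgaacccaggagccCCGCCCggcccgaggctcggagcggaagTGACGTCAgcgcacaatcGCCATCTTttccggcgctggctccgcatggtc
The 3 CCGCCC matches are GGGCGG on the opposite strand, TGACGTCA is the CRE, which starts 50 bases before the start site, and GCCATCTT is the YY1 motif on the opposite strand, 32 bases before it. The stretch has a GC content of 65.6% and holds none of the CCAAT, TATA box or ETS letters.

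ZNF580 (ENSG00000213015, chr19:55635016-55643470, plus strand, cluster 9) encodes a small protein with 3 fingers and no KRAB domain. Its normalized counts were 444, 383 and 407 in the Olaparib samples and 481, 483 and 502 in the DMSO samples. The groups did not overlap. The level fell by 15.8%, from 488 ± 11.4 to 411 ± 31.1 (SD, n = 3 each), with a log2 fold change of -0.25 (SE 0.061, 95% interval -0.37 to -0.12, edgeR adjusted p = 0.0149). ZNF580 shares 15.6% of its exonic bases with other genes and overlaps ZNF581, which lies on the same strand and gave a log2 fold change of 0.063 (SE 0.051, adjusted p = 0.622). How the counting assigned reads in shared exons is not stated, so the value of ZNF580 is uncertain. The call of ZNF580 was lost with DESeq2 (adjusted p = 0.0818) and without any one sample other than Olaparib replicate 1, where the adjusted p lay between 0.0565 and 0.116.

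With 3 samples against 3, an exact two-sided permutation test of a single gene cannot give a p under 0.10, and ZNF121 and ZNF580 both gave 0.10. Among members that did not pass the adjusted test, the smallest p of the lower ones was that of ZNF431 in cluster 4, a KRAB protein gene with 12 fingers. Its normalized counts were 629, 570 and 519 after Olaparib and 702, 633 and 634 with DMSO, and its log2 fold change was -0.20 (SE 0.059, edgeR adjusted p = 0.0626). It passed with no filter (adjusted p = 0.0281), with offsets for GC content and length (adjusted p = 0.0253) and without Olaparib replicate 1 (adjusted p = 0.0103). Its groups were separate, by a narrow margin between Olaparib replicate 1 and DMSO replicate 2.

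The smallest p values in the higher direction belonged to ZNF845, ZNF57 and ZNF253, all of them KRAB protein genes. ZNF845, with 26 fingers, had normalized counts of 444, 428 and 433 after Olaparib and 407, 387 and 370 with DMSO, a log2 fold change of 0.17 (SE 0.061, adjusted p = 0.147). ZNF253 had 600, 542 and 568 against 527, 506 and 526, a log2 fold change of 0.13 (SE 0.055, adjusted p = 0.216). For both genes all Olaparib samples lay above all DMSO samples. ZNF57 had 267, 233 and 265 against 209, 218 and 233, a log2 fold change of 0.21 (SE 0.083, adjusted p = 0.183). Its groups overlapped, and 75.2% of its exonic bases overlap a gene on the opposite strand.

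**Figure D2:**
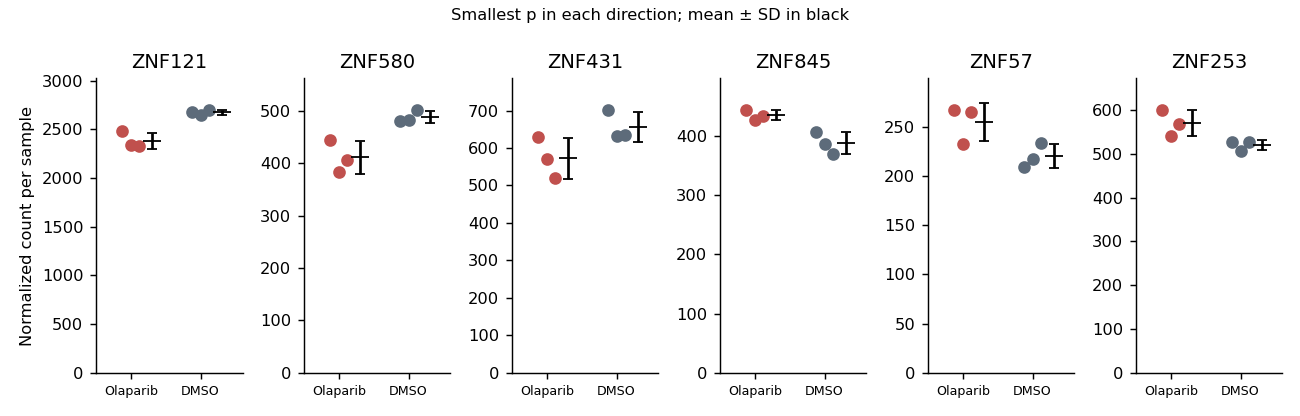
Normalized counts per sample (vertical axis, from 0) of the 3 members with the smallest p in each direction, with the mean ± SD (n = 3) in black. For ZNF121 the Olaparib samples lie at 2331 to 2481 and the DMSO samples at 2644 to 2700.

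Most fitted values leaned slightly below 0. The median log2 fold change of the members was -0.032, and 163 of 233 (70.0%) lay below 0. The median was -0.013 without DMSO replicate 1 and -0.019 without Olaparib replicate 2, and -0.050 without DMSO replicate 3. Over all genes tested the median was -0.0042 with 51.4% below 0, and over tested protein-coding genes it was 0.0050 with 47.8% below 0. ZNF genes on other chromosomes (220 tested) had a median of -0.025 with 63.2% below 0, close to the members, and other protein-coding genes of chromosome 19 (865 tested) had 0.020 with 42.9% below 0. These medians are descriptions without a test, since genes of a family are not independent replicates. The spread between samples was of similar size. The median log2 ratio of the members to the DMSO mean was 0.0015, -0.062 and -0.034 in the Olaparib samples and 0.027, -0.024 and -0.0084 in the DMSO samples. Olaparib replicate 1 thus lay above DMSO replicates 2 and 3.

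Summed over the members, the level was 2814, 2685 and 2734 CPM in the Olaparib samples and 2861, 2784 and 2794 CPM in the DMSO samples. The groups overlapped, with Olaparib replicate 1 above DMSO replicates 2 and 3. The means were 2744 ± 65.1 and 2813 ± 41.6 (SD, n = 3 each). In such bulk samples a change in RNA per cell and a change in the mix of cell states cannot be told apart.

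**Figure D3:**
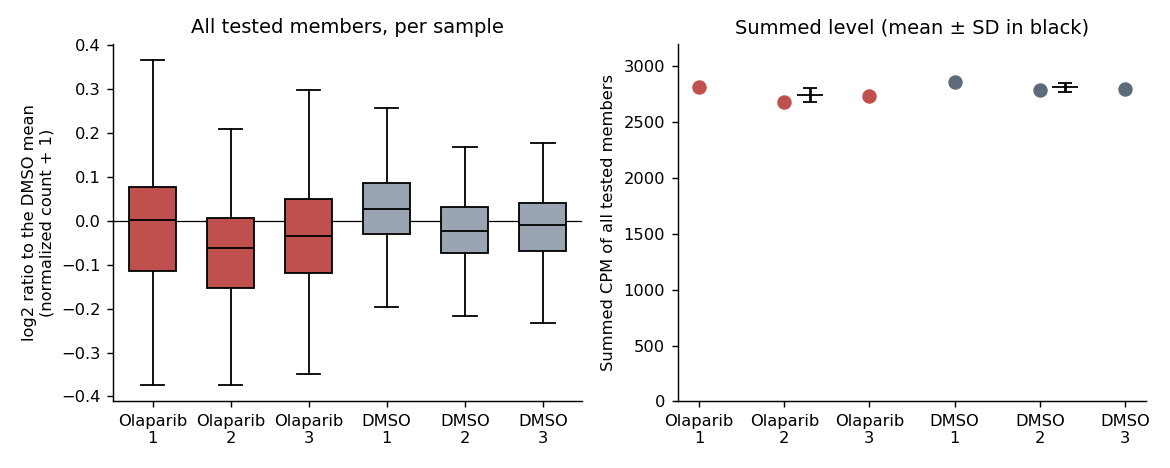
Left, log2 ratio of each of the 233 members to its DMSO mean (normalized count plus 1) per sample, as boxes of the quartiles with the median and whiskers, without the points beyond them. Right, summed CPM of the members per sample, from 0, with the group mean ± SD in black, at 2685 to 2814 for Olaparib and 2784 to 2861 for DMSO.

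Members whose groups did not overlap numbered 6 higher (2.58%) and 23 lower (9.87%), where 10.0% of all genes tested were separate in the higher direction and 9.29% in the lower. Besides the genes above, and chosen after their values were seen, the lower ones included ZNF790 of cluster 6 (log2 fold change -0.32, adjusted p = 0.105), ZNF675 of cluster 4 (-0.14, adjusted p = 0.0904) and ZNF226 of cluster 7 (-0.15, adjusted p = 0.102) in edgeR's test, and the higher ones ZNF98 of cluster 4 (0.28, adjusted p = 0.217). None of the 4 passed the adjusted test. In other settings, ZNF675 was called with offsets for GC content and length, where 5.56% of all genes were called in either direction. ZNF790, ZNF675 and ZNF226 were called with a replicate block in the model, where 6.08% of all genes were called.

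The precision of the data bounds what the members could have done. The median SE of a member's log2 fold change was 0.074. For 142 of 233 members (60.9%) the 95% interval lay wholly within a fold of 1.2 in either direction, against 46.7% of all genes tested, 66.1% of protein-coding genes, 63.5% of other protein-coding genes of chromosome 19 and 72.7% of ZNF genes on other chromosomes. This share was 17.2% in the lowest quartile of level and 94.9% in the highest, so that for most members of low level a fold of 1.2 was not detectable at this depth. The median log2 fold change was -0.056, -0.039, -0.017 and -0.021 from the lowest to the highest quartile, and both called members were in the highest.

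**Figure D4:**
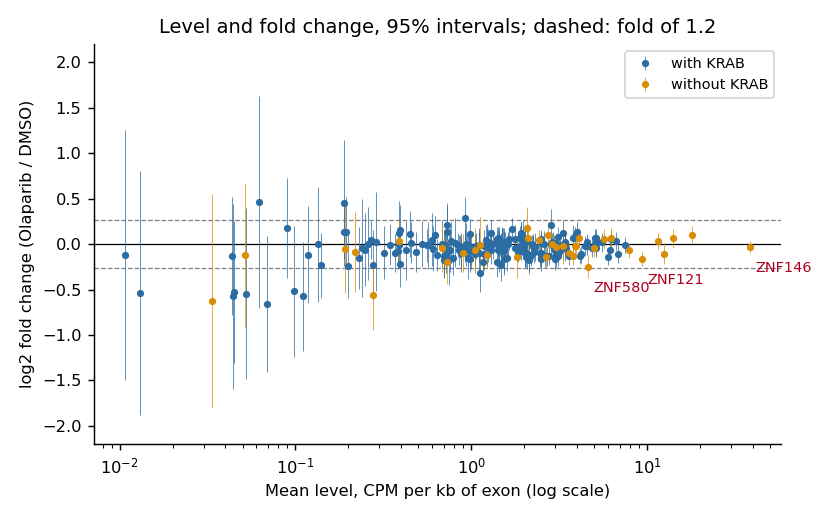
Log2 fold change with its 95% interval (vertical axis) against mean level in CPM per kb of exon (log axis) for the 233 members, coloured by KRAB domain, with dashed lines at a fold of 1.2. Intervals narrow from left to right, and in the highest quartile of level 94.9% of them lie between the dashed lines.

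Both called members lacked a KRAB domain. The 196 members with KRAB had a median log2 fold change of -0.028 and 0 calls, with 5 higher and 24 lower at an unadjusted p under 0.05 (2.55% and 12.2%). The 37 members without KRAB had a median of -0.042 and 2 calls (5.41%), with 1 higher and 5 lower (2.70% and 13.5%). Over all genes tested, 1.21% were called lower, and 7.83% were higher and 6.97% lower at an unadjusted p under 0.05. Whether these subsets differ was not tested. By number of fingers, the median was -0.018 for 1 to 9 fingers, -0.033 for 10 to 12, -0.035 for 13 to 15 and -0.056 for more than 15.

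Clusters 3 and 4 had the lowest medians, -0.098 over 25 members and -0.087 over 36, followed by cluster 6 (-0.067 over 24) and cluster 7 (-0.056 over 22). In the other 6 clusters the median lay between -0.020 and 0.020. Cluster 4, which holds ZNF91, ZNF431 and ZNF675, had 28 of 36 members below 0 (77.8%, against 51.4% of all genes), with 2 higher and 8 lower at an unadjusted p under 0.05 (5.56% and 22.2%, against 7.83% and 6.97% of all genes). Its median log2 ratio to the DMSO mean was -0.044, -0.12 and -0.048 in the Olaparib samples and 0.056, -0.058 and -0.0037 in the DMSO samples, so that DMSO replicate 2 lay among the Olaparib samples. Its summed level was 489, 462 and 481 CPM after Olaparib and 529, 487 and 500 CPM with DMSO. Cluster 3, in which a median of 7.95% of a gene's 50-base words occur in other transcripts, had a wider median SE of 0.12. Its median log2 ratio was -0.11, -0.14 and -0.023 in the Olaparib samples and 0.083, -0.055 and -0.029 in the DMSO samples, and here too the groups overlapped. Without DMSO replicate 1 the medians of clusters 3 and 4 were -0.0098 and -0.037, and without Olaparib replicate 2 they were -0.043 and -0.050. That of cluster 6 was -0.022 without DMSO replicate 1 and -0.042 without Olaparib replicate 2, and that of cluster 7 was -0.050 and -0.026. Other removals moved these medians in either direction, and all stayed below 0. Cluster 4 was at -0.06 without DMSO replicate 3 and at -0.073 without Olaparib replicate 1. Cluster 6 was at -0.057 without Olaparib replicate 3, and cluster 7 at -0.05 without DMSO replicate 2. At the lowest, cluster 3 was at -0.16 without Olaparib replicate 3 and cluster 4 at -0.13 without DMSO replicate 2. Cluster 6 was lowest at -0.097 without DMSO replicate 2 and cluster 7 at -0.068 without DMSO replicate 3.

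Several members have a described role. ZNF91 and ZNF611 bind SVA elements, ZNF93 binds L1 elements, and ZNF808 binds MER11 elements, all of them transposable elements. ZNF91 had normalized counts of 1590, 1527 and 1486 after Olaparib and 1747, 1642 and 1645 with DMSO. The groups were separate, at a log2 fold change of -0.13 (SE 0.044) that did not pass the adjusted test (edgeR adjusted p = 0.109). ZNF91 did pass with offsets for GC content and length (adjusted p = 0.0426) and without Olaparib replicate 1 (adjusted p = 0.0489). The other 3 overlapped between the groups, with log2 fold changes of -0.16 (ZNF611, SE 0.075), 0.036 (ZNF93, SE 0.046) and -0.021 (ZNF808, SE 0.087). The value of ZNF611 leaned on DMSO replicate 1, at 509 normalized counts against 375 to 411 in the other 5 samples, and was -0.030 without that sample.

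ZNF274, which binds the 3′ ends of zinc finger genes and recruits SETDB1 to them, stood at 1247, 1303 and 1211 normalized counts in the Olaparib samples and 1270, 1407 and 1385 in the DMSO samples (log2 fold change -0.11, SE 0.047, edgeR adjusted p = 0.223). ZNF350 and ZNF432, both linked to the DNA damage response, gave log2 fold changes of 0.060 (SE 0.073) and -0.19 (SE 0.084), with edgeR adjusted p of 0.778 and 0.248. ZNF432 overlapped between the groups, at 267 to 323 normalized counts after Olaparib and 306 to 386 with DMSO, and its log2 fold change was -0.076 without DMSO replicate 1. That of ZNF350 was 0.024 without DMSO replicate 2, 0.029 without Olaparib replicate 3 and 0.11 without Olaparib replicate 2. ZNF224, a partner of WT1, ZNF568, ZNF331, which is imprinted, and ZNF146 lay between -0.041 and 0.082, with overlapping groups in each case. Of the 11 tested members with a described role, 0 were called in either direction in edgeR's test. So short a list bears little on this count, since 2.15% of all genes were called higher and 1.21% lower.

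The level of the KRAB pathway itself was read from 45 genes for cofactors and heterochromatin proteins. In edgeR's test 0 were called higher and 0 lower, with 4 higher and 5 lower at an unadjusted p under 0.05 (8.89% and 11.1%, against 7.83% and 6.97% of all genes), and all 45 intervals lay within a fold of 1.2. DESeq2 and limma voom also called 0 of the 45, whereas TRIM28 was called with no filter on low counts, and TRIM28, CHD3 and MPHOSPH8 with offsets for GC content and length. Of all genes, 2.61% were called with no filter and 5.56% with the offsets, so these few calls bear little on the list. Normalized counts of TRIM28 were 19255, 20296 and 19021 after Olaparib, against 17779, 18777 and 18567 with DMSO. Its groups were separate, at a log2 fold change of 0.087 (SE 0.029, edgeR adjusted p = 0.103, or 0.0356 with no filter and 0.0313 with the offsets). SETDB1 was at 2048, 2107 and 1996 against 2063, 2147 and 2246, with overlapping groups and a log2 fold change of -0.070 (SE 0.042, adjusted p = 0.464). Among the functional groups, HUSH and MORC, which spreads and maintains this heterochromatin, had the lowest median (-0.087) and is singled out for that value. In it 4 of 5 genes lay below 0 (80%, against 51.4% of all genes), and none passed the adjusted test. The highest medians were 0.029 for H3K9 demethylases (4 of 6 above 0), 0.027 for DNA methyltransferases (2 of 3) and 0.025 for the corepressor and SUMO pathway (4 of 5).

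**Figure D5:**
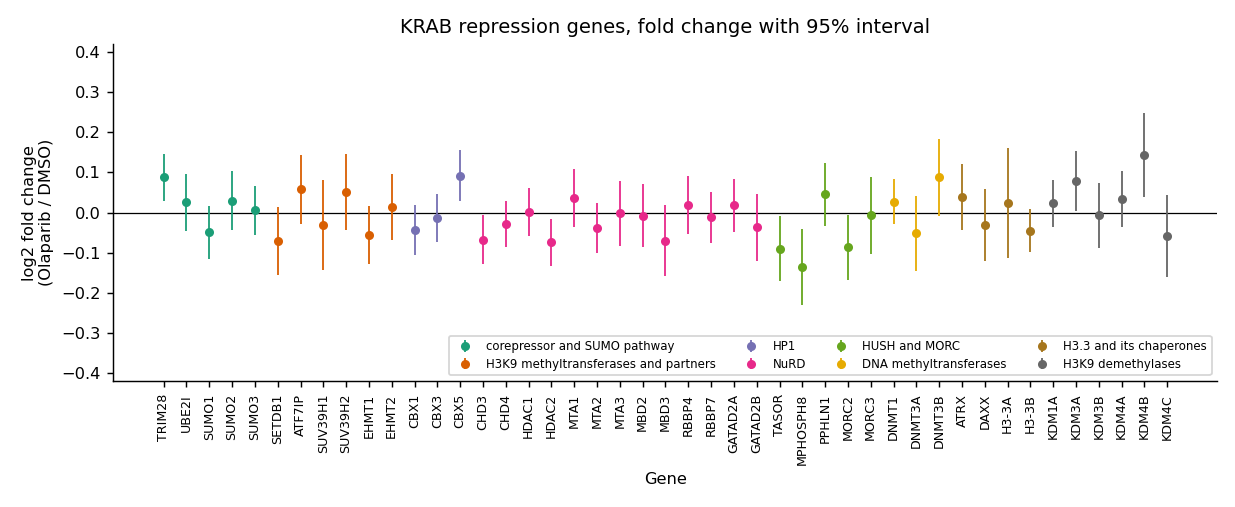
Log2 fold change (Olaparib over DMSO) with its 95% interval for the 45 KRAB repression genes, coloured by functional group. Fitted values run from -0.14 to 0.14, and no interval reaches a fold of 1.2, which is 0.263 on the log2 scale.

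Shared sequence limits single values. Of the 233 members, 60 overlap another gene, on the same or the opposite strand, over more than 10% of their exonic bases. More than 10% of the 50-base words of 47 members occur in other transcripts, and 73 members in all meet either condition. The 160 members with little sharing had a median log2 fold change of -0.028 and 1 call, ZNF121. How the counting treated reads with several matches, and its strand setting, are not given in the sources used here.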

How the data were processed

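RNA-seq counts of 6 samples (3 Olaparib, 3 DMSO) were analysed. The authors deposited whole-number read counts per gene, not normalized, which their methods derive with Trimmomatic, STAR on GRCh38, Picard and featureCounts. Whether duplicates were removed is not stated. Genes with more than 10 counts in total were scaled by TMM and tested with edgeR 4.0.16 (quasi-likelihood, Benjamini-Hochberg adjustment) in R 4.3.3, checked first on simulated counts. Calls used an adjusted p under 0.05, alone and with a fold above 1.2. Genes were matched by Ensembl identifier to GENCODE release 44. KRAB domains (at least 50% identity to a 41-residue A-box consensus) and fingers were searched in the translated canonical GENCODE transcript of each gene, in place of the RefSeq proteins planned. Log2 ratios per sample used a pseudocount of 1.

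The members and gene lists were chosen with earlier results of these data known. The text names called members, the 3 smallest p in each direction, the 5 highest levels, members with a described role, those next to the filter, and TRIM28 and SETDB1. Alternatives were DESeq2 1.42.0, limma 3.58.1 (voom), other scalings and filters, GC and length offsets, a replicate block, leaving out each sample and leaving out members with shared sequence. The last, and the medians by cluster without each sample, were chosen after seeing the data.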

Additional observations from a re-analysis of the deposited data

How the results depend on the processing

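Over 537 alternative values, 476 kept their direction and side of the threshold or moved within their allowed range, 31 moved further, 15 passed the threshold newly, 9 no longer passed it and 6 changed sign. The members called lower (2 in the test reported) numbered 1 with DESeq2, 5 with GC and length offsets and 1 among members with little shared sequence. Limma voom, both other scalings and edgeR's own filter kept ZNF121 and ZNF580, and no filter added ZNF431 (adjusted p = 0.0281). With GC and length offsets 1 member (0.429%, against 3.27% of all genes) was called higher, ZNF253 (adjusted p = 0.0349). Leaving out each sample gave 0 to 7 lower calls, 0 without Olaparib replicate 2 or 3, 7 without Olaparib replicate 1 and 1 without each DMSO sample, where DMSO replicate 3 left ZNF772 in place of the others. The share of all genes called lower was 1.49% without Olaparib replicate 1, 0.810% and 0.612% without Olaparib replicates 2 and 3, and 0.571% to 0.681% without a DMSO sample, against 3.00% of members in the first of these settings. With the offsets it was 2.29% of all genes and 2.15% of members. Leaving out samples gave 10 to 35 members lower at an unadjusted p under 0.05 (4.29% to 15.0%, against 5.60% to 7.67% of all genes). In the higher direction it gave 2 to 9 members (0.858% to 3.86%, against 6.59% to 8.23%). At an adjusted p under 0.05 and fold above 1.2 it gave 0 to 2 lower and 0 higher. No background share at this fold was computed in any alternative. Of the KRAB repression genes, TRIM28 was called higher with no filter (1 gene, adjusted p = 0.0356), where 1.67% of all genes were called higher. GC and length offsets gave 1 higher and 2 lower, where 3.27% of all genes were called higher and 2.29% lower. Leaving out samples gave 0 to 1 higher, the 1 being CBX5 without DMSO replicate 1, where 1.45% of all genes were called higher. The median log2 fold change of the members ran from -0.050 (without DMSO replicate 3) to -0.013 (without DMSO replicate 1) and stayed below 0 in all settings tried. Upper quartile scaling moved the median of all genes to -0.013 and that of the members to -0.041. Leaving out samples reversed ZNF568 (-0.018 without Olaparib replicate 1, -0.049 without DMSO replicate 2), ZNF99 (0.28 without Olaparib replicate 1, 0.069 without DMSO replicate 1, -0.66 at the lowest, without Olaparib replicate 3) and ZNF808 (0.042 without Olaparib replicate 3, 0.031 without DMSO replicate 1, -0.083 at the lowest, without Olaparib replicate 2). The cause of these changes was not tested.

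The replicate numbers did not pair the samples, as deviations from the group means correlated at -0.15, 0.19 and -0.21 between samples of the same number over 13121 genes. With a replicate block, 7 members (3.00%, against 2.38% of all genes) were called lower, 1 with the added fold. KRAB repression genes numbered 2 higher and 1 lower. With block and offsets, 1 member was higher and 9 (3.86%, against 2.94% of all genes) lower, 1 with the added fold. KRAB repression genes numbered 2 higher and 5 lower. ZNF431, ZNF91 and TRIM28 passed with the block (adjusted p = 0.00831, 0.0352 and 0.00997) and with block and offsets (adjusted p = 0.0086, 0.034 and 0.013). All genes called rose from 730 to 1322 with the block, 1208 with the offsets and 1522 with both. Called higher were 3.70% of all genes with the block and 4.06% with both.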
